A study of Homo sapiens with 12 samples.

Results

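The genes described here are those of the ERBB receptor family and of ligands that bind it, as measured by RNA-seq in 2 melanoma cell lines before and after vemurafenib. They were picked by gene symbol from the value tables and comprise 10 of the 23273 genes listed: the receptors EGFR, ERBB2, ERBB3, and ERBB4, the ligands TGFA, HBEGF, EREG, AREG, and NRG1, and ERRFI1, an inhibitor of the receptors. All 10 were found in both tables. COLO858 and MMACSF are established lines of BRAF-mutant melanoma, and vemurafenib is an inhibitor of RAF kinases. Each line gave 6 libraries, 2 from plates that received the vehicle DMSO, 2 from plates kept for 24 h in 0.2 μM vemurafenib, and 2 from plates kept for 48 h. The vehicle-treated plates carry no time in their labels, so that both drug times were set against the same pair of DMSO libraries, and the lines were grown in different media. Each line is 1 line in culture, and p-values cover only the spread between libraries of a group. Any shift shared by libraries of the same replicate number is part of that spread in the main fit.

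ERBB receptors are tyrosine kinases that act in pairs. EGFR binds TGFA, HBEGF, EREG, and AREG, ERBB4 binds HBEGF, EREG, and the neuregulins, ERBB3 binds the neuregulin NRG1 but has little kinase activity of its own, and ERBB2 has no known ligand and serves as the preferred partner of the others. ERBB2 and ERBB3 form a strong activator of PI3K, because the tail of ERBB3 carries many binding sites for the p85 subunits of that kinase. Cells of the melanocyte lineage are known to carry ERBB3, and TGFA, HBEGF, and ERRFI1 are known in many cells as genes that respond to the RAS/RAF/ERK pathway.

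Gene values are FPKM, that is fragments per kilobase of transcript scaled by library, and are therefore per length. How the libraries were scaled is not given. The unit is the authors' own, and the read depth behind it is unknown. All p-values in the text are two-sided, come from limma on log2(FPKM + 1), and were adjusted by Benjamini-Hochberg over all genes tested in the comparison. The words rose and fell are kept for an adjusted p below 0.01. Changes and their standard errors (SE) are on the log2(FPKM + 1) scale, which understates the change of low genes. In each line 6 of the 10 genes reached a mean of 1 FPKM in at least 1 group and were tested. ERBB4, NRG1, EREG, and AREG did not reach it in either line, and for these 4 genes only levels are given. In bulk RNA, fewer cells that carry an mRNA and less of it in each cell cannot be told apart.

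The melanocyte markers MITF, PMEL, MLANA, TYR, DCT, TYRP1, SOX10, and S100B were used to check the label of the cells. In COLO858, 6 or 7 of these 8 genes were at or above 1 FPKM in every library, and in MMACSF all 8 were. MLANA was below 1 FPKM in every COLO858 library. TYR had means there of 0.537 FPKM under DMSO, 1.18 FPKM after 24 h, and 0.319 FPKM after 48 h. Summed over the list, the level in COLO858 was 702 and 717 FPKM before drug and 3922 to 4158 FPKM in the 4 libraries in vemurafenib. In MMACSF it was 11160 to 11373 FPKM and then 15589 to 17555 FPKM. The largest part of the sum was DCT in every COLO858 library and PMEL in every MMACSF library. The mean of DCT in COLO858 was 267 FPKM under DMSO, 2915 FPKM after 24 h, and 2150 FPKM after 48 h. Of 8 markers of keratinocytes, leukocytes, endothelium, and fibroblasts, 1 or 2 were at or above 1 FPKM in a library, with LUM the highest in each of the 12. The summed level of these 8 was 5.81 and 8.79 FPKM in DMSO-treated COLO858 and 15.3 to 27.5 FPKM in drug, and 54.95 to 76.8 FPKM in DMSO-treated MMACSF and 19.6 to 50.9 FPKM in drug. KRT5 was listed at 0 in all 12 libraries. The part of either marker list in the results on ERBB genes was not tested.

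Promoter sequences were looked up for the genes that the results turn on, as the 250 bases before the start that RefSeq gives on GRCh38.p14. Entries were found for 8 of the 10 genes, in 10 windows. ERBB3 and NRG1 had no entry, so their promoters were not searched. ERBB2, the main receptor beside ERBB3, and TGFA and ERRFI1, the genes that fell in COLO858, are shown here from 5′ to 3′ on the strand of the gene. Capitals mark letters that match an AP-1 motif, TGANTCA, or an ETS motif, CCGGAA, on either strand, which are motifs of factor families downstream of ERK. ERBB2 lies at chr17:39687844-39688093 on the plus strand, the shown window of TGFA at chr2:70553447-70553696 on the minus strand, and ERRFI1 at chr1:8026310-8026559 on the minus strand.
ERBB2: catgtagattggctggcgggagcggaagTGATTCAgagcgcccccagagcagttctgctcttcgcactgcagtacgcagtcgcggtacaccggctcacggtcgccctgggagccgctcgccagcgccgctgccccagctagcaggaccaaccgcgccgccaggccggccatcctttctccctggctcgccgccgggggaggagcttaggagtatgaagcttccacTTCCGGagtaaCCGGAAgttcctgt
TGFA: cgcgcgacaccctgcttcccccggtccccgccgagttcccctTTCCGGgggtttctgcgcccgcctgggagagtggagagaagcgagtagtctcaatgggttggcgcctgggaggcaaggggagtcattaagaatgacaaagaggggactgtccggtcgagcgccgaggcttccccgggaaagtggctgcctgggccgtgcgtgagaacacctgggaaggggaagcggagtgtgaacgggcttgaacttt
ERRFI1: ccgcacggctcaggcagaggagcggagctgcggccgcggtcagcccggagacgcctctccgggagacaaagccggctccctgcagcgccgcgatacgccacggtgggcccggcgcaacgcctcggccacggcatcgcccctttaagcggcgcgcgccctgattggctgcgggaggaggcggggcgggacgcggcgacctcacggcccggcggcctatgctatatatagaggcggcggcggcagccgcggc

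The ERBB2 window held 1 match to the AP-1 motif and 2 to the ETS motif, and the TGFA window held 1 to the ETS motif. The ERRFI1 window and a second TGFA window, at chr2:70553827-70554076, held none of these letters. Of 35116 RefSeq windows of this length, 6.57% held the AP-1 motif and 14.5% the ETS motif. A motif of MITF, TCANGTG, occurred in 10.7% of all windows and, among the 8 ERBB genes with an entry, in that of EREG alone. Of the other windows, those of AREG and ERBB4 held 1 ETS match each and the second of EGFR held 2 AP-1 matches, and HBEGF had no match. These matches are letters in a window and were not measured as bound sites. The last 36 bases of the ERBB2 window, chr17:39688058-39688093, also lie before the start of PGAP3, a gene on the opposite strand. Of the ERRFI1 window, 183 bases, chr1:8026310-8026492, also lie before the start of ERRFI1-DT on the opposite strand, and 94 bases of the first EGFR window are shared in this way with LOC105375284.

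ERBB3 was the most abundant receptor and rose in both lines and at both times. It lies at chr12:56470583-56497289 of GRCh37, the build that the authors used under its name hg19. In COLO858 it stood at 42.6 and 45.5 FPKM under DMSO, at 108.6 and 120.1 FPKM after 24 h, and at 107.2 and 108.9 FPKM after 48 h. All 4 vemurafenib-treated libraries lay above both DMSO libraries. The mean was 2.60 times that of DMSO at 24 h, a log2 change of 1.36 (SE 0.12, adjusted p = 0.00240). At 48 h it was 2.45 times, a log2 change of 1.28 (adjusted p = 0.00295). Among all genes that rose in COLO858, ERBB3 ranked 315 of 522 by size of change at 24 h and 437 of 602 at 48 h.

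In MMACSF ERBB3 stood at 79.8 and 83.8 FPKM under DMSO, at 137.3 and 149.2 FPKM after 24 h, and at 147.1 and 154.0 FPKM after 48 h. Here, too, the groups did not overlap. The mean was 1.75 times that of DMSO at 24 h, a log2 change of 0.80 (SE 0.11, adjusted p = 0.00866), and 1.84 times at 48 h, a log2 change of 0.87 (adjusted p = 0.00558). By size of change, ERBB3 ranked 279 of 280 at 24 h and 390 of 431 at 48 h among all genes that rose in MMACSF. Its level was above 90.5% of the 23273 listed genes in the lowest library of the 2 lines and above 98.0% in the highest. When any 1 of the 4 libraries compared was left out, ERBB3 lost its call in both lines, with adjusted p between 0.0193 and 0.0277 in COLO858 and between 0.0378 and 0.0574 in MMACSF, while its log2 change stayed between 1.23 and 1.43 in COLO858 and between 0.74 and 0.91 in MMACSF. In MMACSF at 24 h the call was also lost without a minimum level (adjusted p = 0.0104) and without the mean-variance trend (adjusted p = 0.0138).

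ERBB2, the second most abundant receptor, was higher in every vemurafenib-treated library of each line than in its DMSO libraries. In the fit used here, which has no term for replicate number, its adjusted p was above 0.01. A fit with such a term is reported with the alternatives at the end. In COLO858 its level was 13.4 and 10.2 FPKM under DMSO, 22.7 and 17.5 FPKM after 24 h, and 33.7 and 25.8 FPKM after 48 h. The log2 change was 0.72 (SE 0.23, adjusted p = 0.0717) at 24 h and 1.27 (SE 0.23, adjusted p = 0.0156) at 48 h, when the mean was 2.53 times that of DMSO. In MMACSF the level was 15.6 and 11.1 FPKM under DMSO, 27.8 and 27.3 FPKM after 24 h, and 31.5 and 26.8 FPKM after 48 h. The log2 change was 1.01 (SE 0.19, adjusted p = 0.0206) at 24 h and 1.09 (SE 0.19, adjusted p = 0.0142) at 48 h.

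The annotated extent of ERBB2, chr17:37844167-37886679 of GRCh37, overlaps PGAP3 and MIEN1 on the opposite strand. Libraries were made with a stranded kit, but the strand setting of the counting is not stated, so reads of overlapping genes could have been counted for either. PGAP3, which edits the lipid of GPI anchors, stood at 3.29 and 2.97 FPKM in DMSO-treated COLO858 and at 7.72 and 6.65 FPKM after 48 h, and it rose with a log2 change of 0.99 (adjusted p = 0.00986). In MMACSF its log2 change at 48 h was 1.12 (adjusted p = 0.0178), from 2.69 and 1.87 FPKM to 6.65 and 5.58 FPKM. MIEN1, at 77.6 to 114.6 FPKM over the 12 libraries, had changes at 48 h of 0.18 in COLO858 and -0.25 in MMACSF. The part of shared reads in the ERBB2 values was not tested.

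EGFR was measured at low levels, and its changes had opposite signs in the 2 lines. In COLO858 it stood at 1.17 and 1.40 FPKM under DMSO, at 0.627 and 0.428 FPKM after 24 h, and at 0.702 and 0.324 FPKM after 48 h, so that all 4 vemurafenib-treated libraries lay below the DMSO libraries. The log2 change was -0.58 at 24 h (SE 0.18, adjusted p = 0.0700) and -0.60 at 48 h (adjusted p = 0.0648). In MMACSF the level was 1.27 and 1.83 FPKM under DMSO, 2.37 and 2.15 FPKM after 24 h, and 2.20 and 1.73 FPKM after 48 h. Its log2 change was 0.36 (adjusted p = 0.224) at 24 h and 0.22 (adjusted p = 0.425) at 48 h, when the groups overlapped. EGFR passed the minimum of 1 FPKM in COLO858 only through its DMSO group.

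ERBB4 was the least abundant receptor. Its level in COLO858 was 0.0393 and 0.103 FPKM under DMSO, 0.118 and 0.137 FPKM after 24 h, and 0.418 and 0.315 FPKM after 48 h. In MMACSF it was 0.220 and 0.353 FPKM under DMSO, 0.442 and 0.512 FPKM after 24 h, and 0.345 and 0.563 FPKM after 48 h. The groups did not overlap in COLO858, and in MMACSF the 48 h libraries overlapped those of DMSO. In all 12 libraries the order of the receptors was ERBB3, ERBB2, EGFR, ERBB4, although EGFR and ERBB4 could not be separated in COLO858 at 48 h, where their values overlapped.

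**Figure D1:**
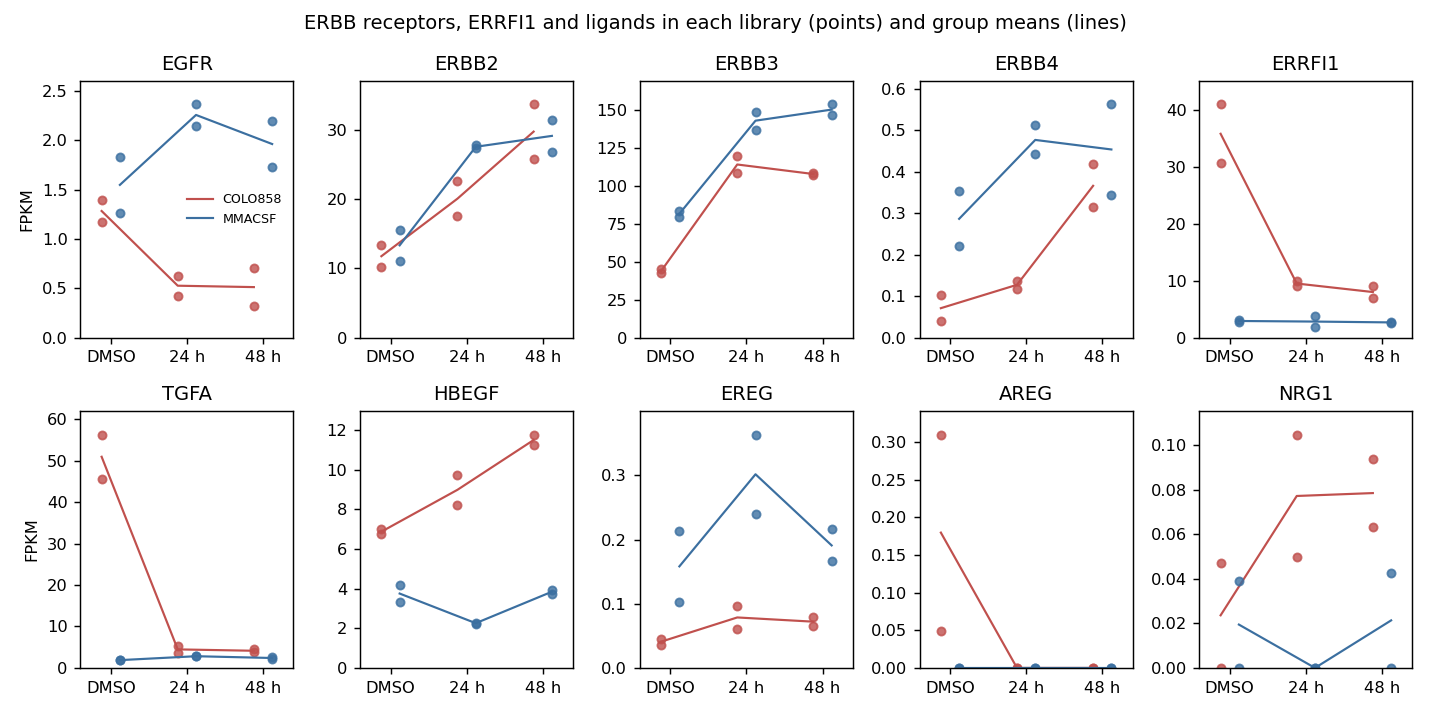
FPKM (linear vertical axis, a scale of its own for each gene) of the 10 genes under DMSO and after 24 and 48 h in vemurafenib, with a point for each library and lines through the means of 2 libraries. ERBB3 and ERBB2 lie higher in drug in both lines, whereas TGFA and ERRFI1 in COLO858 lie lower in drug, and ERBB4, EREG, AREG, and NRG1 stay below 1 FPKM throughout; the lines come from tables that may be scaled separately.

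TGFA was the most abundant of the ligands in DMSO-treated COLO858 and fell in drug. The gene lies on the minus strand at chr2:70674416-70781325 of GRCh37. In COLO858 it stood at 45.6 and 56.3 FPKM under DMSO, at 3.62 and 5.32 FPKM after 24 h, and at 3.82 and 4.45 FPKM after 48 h. The lower of the DMSO libraries was thus far above the highest library in drug. The mean was 11.4-fold lower at 24 h, a log2 change of -3.26 (SE 0.22, adjusted p = 0.00115), and 12.3-fold lower at 48 h, a log2 change of -3.33 (SE 0.22, adjusted p = 0.00115). Among all genes that fell in COLO858, TGFA ranked 36 of 725 by size of change at 24 h and 31 of 600 at 48 h.

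In MMACSF, TGFA was low before drug. It stood at 1.81 and 1.95 FPKM under DMSO, at 2.84 and 2.80 FPKM after 24 h, and at 2.13 and 2.65 FPKM after 48 h. All 4 libraries in drug were above both DMSO libraries, but the log2 change of 0.41 at 24 h (SE 0.15, adjusted p = 0.121) and of 0.23 at 48 h (adjusted p = 0.316) did not pass the threshold. The 95% interval at 48 h reached from -0.15 to 0.62.

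HBEGF, made as a membrane-bound precursor like the other EGFR ligands, was measured at 2.24 to 11.8 FPKM. In COLO858 it stood at 6.74 and 7.004 FPKM under DMSO, at 8.24 and 9.73 FPKM after 24 h, and at 11.2 and 11.8 FPKM after 48 h. The groups did not overlap, and the log2 change was 0.34 (SE 0.15, adjusted p = 0.147) at 24 h and 0.67 (adjusted p = 0.0277) at 48 h. In MMACSF it stood at 3.32 and 4.18 FPKM under DMSO, at 2.27 and 2.24 FPKM after 24 h, and at 3.75 and 3.93 FPKM after 48 h. The 24 h libraries were the lowest of the 6, with a log2 change of -0.54 (SE 0.16, adjusted p = 0.0668), and those of 48 h lay within the range of DMSO, with a log2 change of 0.03 and a 95% interval from -0.36 to 0.43.

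The remaining ligands were close to the lower end of the tables. EREG, epiregulin, stood at 0.0363 to 0.0967 FPKM in the 6 COLO858 libraries and at 0.103 to 0.364 FPKM in those of MMACSF. AREG, amphiregulin, was listed at 0.0496 and 0.310 FPKM in DMSO-treated COLO858 and at 0 in the other 10 libraries. GRCh37 also holds AREGB, a copy of AREG that is not among the listed genes, and the AREG values are uncertain for that reason. NRG1, the main ligand of ERBB3, was at most 0.105 FPKM in COLO858 and 0.0426 FPKM in MMACSF, and it was listed at 0 in 5 of the 12 libraries. EREG lies at chr4:75230862-75254466 and AREG at chr4:75310853-75320722 of GRCh37.

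ERRFI1, also known as MIG6, binds the kinase domain of ERBB receptors and blocks its activity. It was high in DMSO-treated COLO858 and fell in drug. Its level was 30.7 and 41.1 FPKM under DMSO, 9.06 and 10.0 FPKM after 24 h, and 6.93 and 9.15 FPKM after 48 h, so that the groups lay far apart. The mean was 3.76-fold lower at 24 h, a log2 change of -1.80 (SE 0.21, adjusted p = 0.00471). At 48 h it was 4.47-fold lower, a log2 change of -2.03 (SE 0.21, adjusted p = 0.00380). Among all genes that fell in COLO858, ERRFI1 ranked 341 of 725 by size of change at 24 h and 139 of 600 at 48 h. In MMACSF it stood at 2.75 and 3.14 FPKM under DMSO, at 1.91 and 3.77 FPKM after 24 h, and at 2.74 and 2.65 FPKM after 48 h. The log2 change there was -0.08 at 24 h (95% interval -0.73 to 0.57), a sign that turned to 0.28 without the first 24 h library, and -0.09 at 48 h (95% interval -0.74 to 0.55).

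In COLO858, then, 3 of the 6 tested genes passed the threshold at each time, ERBB3 upwards and TGFA and ERRFI1 downwards, where 9.82% and 9.47% of the 12696 genes tested did. Higher calls made up 4.11% and 4.74% of all genes and lower calls 5.71% and 4.73%. In MMACSF 1 of 6 passed at each time, where 5.83% and 8.83% of 12599 genes did, 2.22% and 3.42% upwards. The 6 genes had a median log2 change of -0.12 (24 h) and 0.03 (48 h) in COLO858, beside 0.06 and -0.01 over all tested genes. The same medians for MMACSF were 0.39 and 0.23, beside 0.07 and 0.06. The TGFA call in COLO858 held at 24 h without the second 24 h library (adjusted p = 0.00877) and at 48 h without the first DMSO library (adjusted p = 0.00997), and was lost without any other of the 4 libraries compared (adjusted p up to 0.0131), with a log2 change between -3.48 and -3.03. The ERRFI1 call was lost without any 1 of the 4 (adjusted p 0.0168 to 0.0371), with a log2 change between -2.23 and -1.59. With the spread taken from the 4 libraries compared alone, 1 gene passed in COLO858 at 48 h and 0 in MMACSF at either time.

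**Figure D2:**
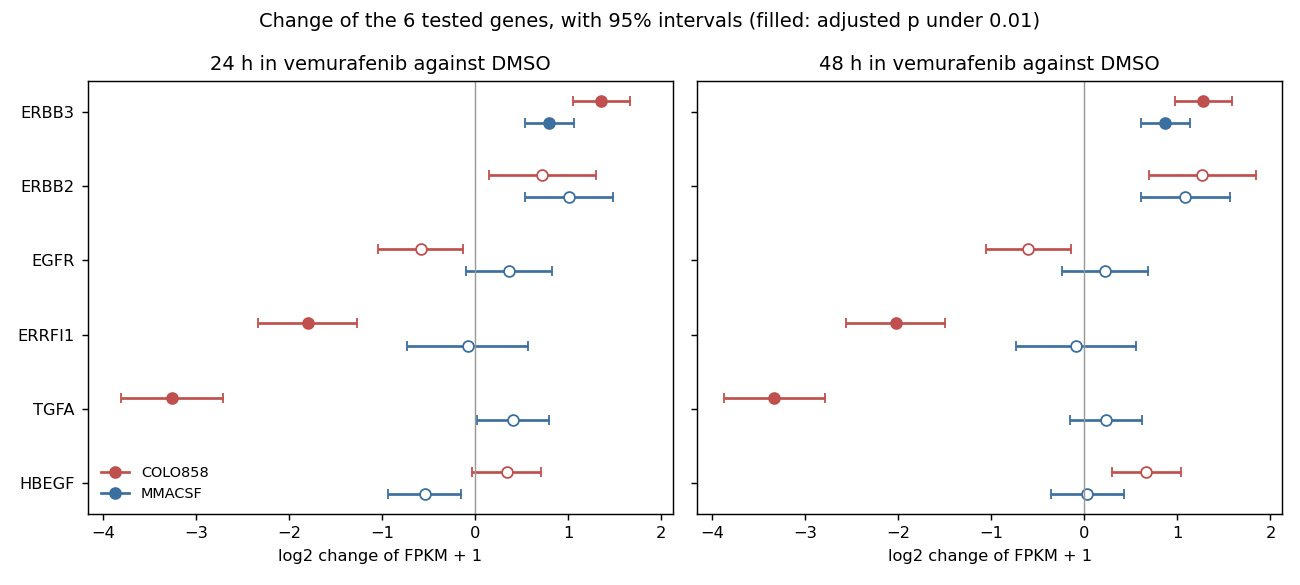
Change of the 6 tested genes against DMSO on the log2(FPKM + 1) scale at 24 h (left) and 48 h (right), with 95% intervals from limma and filled points where the adjusted p is below 0.01. ERBB3 lies to the right of 0 in both lines, while the intervals of TGFA and ERRFI1 in COLO858 lie left of those in MMACSF, with TGFA at -3.26 against 0.41 at 24 h.

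Between 24 and 48 h none of the genes passed. In COLO858 limma called 0 of 6, and 0 had an unadjusted p below 0.05, where 1.38% of all genes were called. The largest change was that of ERBB2, 0.54 (95% interval -0.03 to 1.12, adjusted p = 0.274). In MMACSF limma called 0 of 6, and 1, HBEGF, had an unadjusted p below 0.05, where 0.222% of all genes were called. Its log2 change from 24 to 48 h was 0.57 (adjusted p = 0.455).

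Whether the lines responded differently was tested as the change in COLO858 minus that in MMACSF, because the 2 tables may have been scaled separately and levels were not tested between lines. TGFA differed at both times, by -3.67 at 24 h (SE 0.25, adjusted p = 0.000171) and -3.57 at 48 h (SE 0.25, adjusted p = 7.42e-05). It remained past the threshold when any 1 of the 8 libraries was left out, with a difference between -3.89 and -3.42. For ERRFI1 the difference of -1.71 at 24 h (SE 0.35, adjusted p = 0.0192) did not pass and that of -1.93 at 48 h did (SE 0.35, adjusted p = 0.00730). The 48 h call was lost without any 1 of the 8 libraries (adjusted p 0.0135 to 0.0311), while at 24 h the difference passed without the first 24 h library of MMACSF (-2.07, adjusted p = 0.00885). The genes called were thus 1 of 6 at 24 h and 2 of 6 at 48 h, with a lower value in COLO858 in each case, where 3.71% and 7.48% of 13595 genes were called and 1.93% and 3.3% were lower in COLO858. Without a minimum level, or with 0.1 FPKM added in place of 1, the count at 48 h was 1. In DMSO-treated MMACSF, TGFA and ERRFI1 had means of 1.88 and 2.94 FPKM. At such levels the log2(FPKM + 1) scale understates changes, so the size of these differences depends in part on the level before drug.

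The other receptors and HBEGF did not pass this test in the main fit, which has no term for replicate number. The ERBB3 difference was 0.56 at 24 h (95% interval 0.25 to 0.86, adjusted p = 0.0376) and 0.41 at 48 h (adjusted p = 0.0819). For HBEGF it was 0.88 (adjusted p = 0.0207) and 0.63 (adjusted p = 0.0503), and for EGFR -0.94 (adjusted p = 0.0495) and -0.83 (adjusted p = 0.0558). With median-ratio rescaling of the libraries the HBEGF difference at 24 h passed (adjusted p = 0.00987), as did that of ERRFI1 (adjusted p = 0.00786), so that the count with TGFA was 3. For ERBB2 the difference was -0.29 (95% interval -0.99 to 0.42) at 24 h and 0.18 (95% interval -0.52 to 0.89) at 48 h. Of the change from 24 to 48 h, limma called 0 of 6 as different between lines, where 2.96% of all genes were called, and 0 had an unadjusted p below 0.05.

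The make-up of receptor and ligand mRNA followed from these levels. In COLO858 the 4 receptors summed to 57.1 and 57.2 FPKM under DMSO, to 132 and 138 FPKM after 24 h, and to 142 and 135 FPKM after 48 h. In MMACSF the sum was 96.9 and 97.1 FPKM, then 168 and 179 FPKM, then 181 and 183 FPKM. ERBB3 made up 74.5% to 86.9% of it in COLO858 and 81.2% to 86.3% in MMACSF, and ERBB2 most of the rest, so that EGFR never exceeded 2.45%. The receptor mRNA was therefore mainly that of ERBB3 and ERBB2 in every library.

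The sum of the 5 ligands went the other way in COLO858. It was 52.4 and 63.6 FPKM under DMSO, 12.02 and 15.2 FPKM after 24 h, and 15.2 and 16.4 FPKM after 48 h. TGFA made up 86.9% and 88.4% of it before treatment and 25.1% to 35.0% afterwards, while HBEGF went from 12.8% and 11.01% to between 64.0% and 73.8%. The order of the pair was thus reversed in all 4 libraries in drug. These shares are of the 5 ligands only. They leave out NRG3, followed below, which stood at 7.03 and 8.12 FPKM in COLO858 after 24 h. In MMACSF the ligand sum stayed between 5.23 and 6.80 FPKM. HBEGF exceeded TGFA there under DMSO and at 48 h, and TGFA exceeded HBEGF in both 24 h libraries, at 53.1% and 51.8% against 42.4% and 41.5%.

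**Figure D3:**
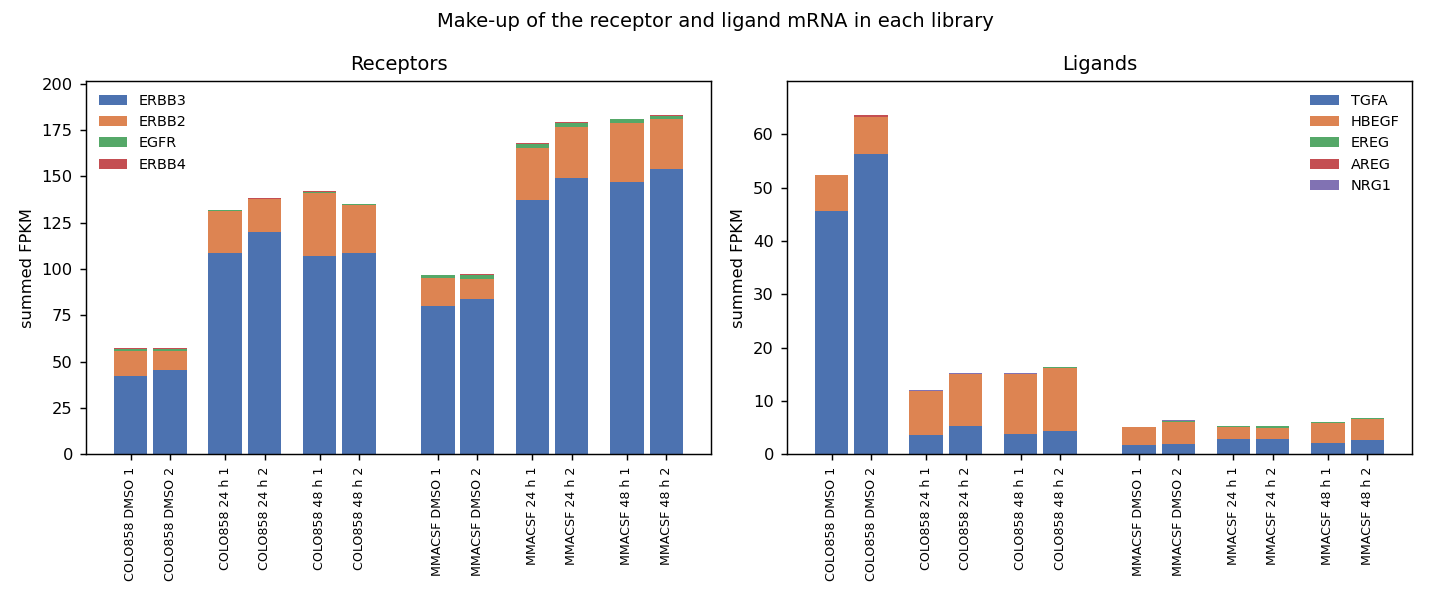
Summed FPKM of the 4 receptors (left) and the 5 ligands (right) in each of the 12 libraries, with a stacked bar per library and a colour per gene. ERBB3 fills most of every receptor bar, and the ligand bars of COLO858 shrink from 52.4 and 63.6 FPKM under DMSO to between 12.02 and 16.4 FPKM in drug as their TGFA part becomes smaller.

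The rest of the pathway was followed in lists by role. As a check on the drug, 10 genes that report the output of ERK were examined, and 9 of 10 fell in each line at each time, where 5.71% and 4.73% of all genes fell in COLO858 and 3.6% and 5.41% in MMACSF. For COLO858 the list had a median log2 change of -2.82 (24 h) and -2.27 (48 h), and for MMACSF of -2.58 and -1.98. The genes were the phosphatases DUSP4 and DUSP6, the pathway inhibitors SPRY2 and SPRY4, the transcription factors ETV4, ETV5, EGR1, and FOSL1, and the cyclin CCND1, with the largest change in ETV4, -5.55 in COLO858 and -5.17 in MMACSF at 48 h, and the smallest in DUSP6 in COLO858 at 48 h, -0.93. PHLDA1 was the exception, with -0.21 and -0.29 at 48 h. EGR1 passed the minimum of 1 FPKM in MMACSF only through its DMSO group. These 9 genes thus fell in both lines. TGFA and ERRFI1, known to respond to the same pathway, passed the threshold in COLO858 and not in MMACSF, where both were below 4 FPKM before drug. HBEGF, also known to respond to that pathway, passed in neither line. Its log2 change at 48 h was 0.67 in COLO858 (adjusted p = 0.0277) and 0.03 in MMACSF.

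Of the 6 other ligands EGF, BTC, EPGN, NRG2, NRG3, and NRG4, only NRG3 was tested in COLO858 and NRG2 and NRG3 in MMACSF. Against DMSO limma called 0, where 9.82% and 9.47% of all genes were called in COLO858 and 5.83% and 8.83% in MMACSF. So few tested genes give little to compare with these shares. At an unadjusted p below 0.05 there was NRG3 alone, at 24 h in COLO858 and at 48 h in MMACSF, beside 40.3% and 38.9% of all genes. NRG3, a neuregulin that binds ERBB4, stood at 3.78 and 4.73 FPKM in DMSO-treated COLO858, at 7.03 and 8.12 FPKM after 24 h, and at 3.20 and 4.40 FPKM after 48 h. In MMACSF it stood at 0.168 and 0.222 FPKM under DMSO and at 1.04 and 1.02 FPKM after 48 h, a log2 change of 0.77 (adjusted p = 0.0198). NRG2 had a log2 change of 0.10 there. Both neuregulins passed the minimum of 1 FPKM in MMACSF only through the 48 h group, where they were highest, so their higher values there also decided that they were tested.

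Of 9 genes of ligand release, which encode proteases that cut the membrane-bound ligands and partners of these proteases, 1 fell in COLO858 at 24 h and 1 rose and 1 fell at 48 h, where 9.82% and 9.47% of all genes were called. ADAM19, a protease that cuts neuregulins, stood at 8.59 and 8.51 FPKM under DMSO, at 3.82 and 4.21 FPKM after 24 h, and at 17.0 and 19.0 FPKM after 48 h. It fell at 24 h, by 0.93 on the log2 scale (adjusted p = 0.00971), and rose against DMSO at 48 h, by 0.99 (adjusted p = 0.00837). In MMACSF it was 1.68 and 1.61 FPKM under DMSO and 0.537 and 0.380 FPKM after 48 h, a log2 change of -0.86 (adjusted p = 0.0248), but it passed the minimum there only through its DMSO group. The lines differed in the ADAM19 change by 1.85 at 48 h (adjusted p = 0.000605).

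RHBDF2 and RHBDF1, which escort the ADAM17 protease, had opposite signs in COLO858. RHBDF2 fell at 48 h with a log2 change of -1.59 (adjusted p = 0.00970), from 11.6 and 7.61 FPKM to 2.80 and 2.13 FPKM. RHBDF1 had a change of 1.82 (adjusted p = 0.0195), from 21.7 and 13.0 FPKM to 75.0 and 51.2 FPKM. ADAM17 itself, the main protease for TGFA, was at 9.35 and 13.1 FPKM under DMSO and at 9.45 and 13.7 FPKM after 48 h, a log2 change of 0.03 (adjusted p = 0.943). In MMACSF limma called 0 of the 8 genes tested at 24 h, with 2 at an unadjusted p below 0.05, and 1 at 48 h, where 5.83% and 8.83% of all genes were called. That gene was BACE1, a protease that also cuts neuregulins. It rose from 5.18 and 5.40 FPKM to 14.6 and 18.1 FPKM, a log2 change of 1.46 (adjusted p = 0.00645). In COLO858 the BACE1 change at 48 h was 1.09 (adjusted p = 0.0183). The difference between lines of -0.37 did not pass (adjusted p = 0.468).

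Of 16 adaptors and PI3K and AKT genes, 1 rose in COLO858 at 24 h and 2 at 48 h, beside the 9.82% and 9.47% of all genes called. PIK3R3, a p85-type subunit of the kind that binds ERBB3, stood at 2.05 and 3.18 FPKM under DMSO, at 33.4 and 40.0 FPKM after 24 h, and at 16.3 and 22.2 FPKM after 48 h. Its log2 change was 3.40 (adjusted p = 0.00138) and 2.49 (adjusted p = 0.00308). GAB1, a docking protein for PI3K, rose at 48 h by 1.61 (adjusted p = 0.00743), from 0.893 and 1.34 FPKM to 4.74 and 6.19 FPKM, and the lowest of the list was GAB2 with -0.48.

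In MMACSF limma called 0 of these 16, where 5.83% and 8.83% of all genes were called. At an unadjusted p below 0.05 there were 4 at 24 h and 3 at 48 h, beside 36% and 38.9% of all genes. The highest at 48 h was GAB1, 0.91 (adjusted p = 0.0302), and the lowest PTPN11, -0.40. PIK3R3 stood at 11.1 and 14.1 FPKM there under DMSO and at 22.9 and 30.9 FPKM after 24 h, a log2 change of 1.03 (adjusted p = 0.0289). The lines differed in its change at 24 h by 2.36 (adjusted p = 0.00477). At 48 h the difference of 1.68 did not pass (adjusted p = 0.0133). At 48 h they differed in SHC1, an adaptor that binds phosphorylated receptors, by 0.77 (adjusted p = 0.00785).

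Of 11 genes that restrain the receptors, among them ubiquitin ligases, LRIG proteins, and the phosphatase PTPN1, limma called 0 in COLO858 and 0 of the 10 tested in MMACSF, where 9.82% and 9.47% of all genes were called in COLO858 and 5.83% and 8.83% in MMACSF. At an unadjusted p below 0.05 there were 4 at each time in COLO858, beside 40.3% and 39.3% of all genes, and 2 and 4 in MMACSF, beside 36% and 38.9%. The extremes at 48 h were the ubiquitin ligases CBLB, 0.69 (adjusted p = 0.0499), and STUB1, -0.72 (adjusted p = 0.258), in COLO858, and LRIG3, 0.67 (adjusted p = 0.0834), and PTPN1, -0.42 (adjusted p = 0.0344), in MMACSF.

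Of 4 genes listed as regulators of ERBB3 transcription, the factors FOXD3 and SOX10 and the co-repressors CTBP1 and CTBP2, limma called 0 in either line, against the same shares of all genes. At an unadjusted p below 0.05 there were 2 of 4 in COLO858 and 1 of the 3 tested in MMACSF, all at 48 h, beside 39.3% and 38.9% of all genes. FOXD3 stood in COLO858 at 11.5 and 5.51 FPKM under DMSO, at 13.4 and 6.94 FPKM after 24 h, and at 57.0 and 25.9 FPKM after 48 h, a log2 change of 2.13 (SE 0.53, adjusted p = 0.0393). In MMACSF it was below 1 FPKM in every library. SOX10 changed by 1.00 in COLO858 (adjusted p = 0.0491) and by 0.59 in MMACSF (adjusted p = 0.125), and the lowest change was that of CTBP2, -0.36 and -0.02. The part of these genes in the ERBB3 values was not tested.

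**Figure D4:**
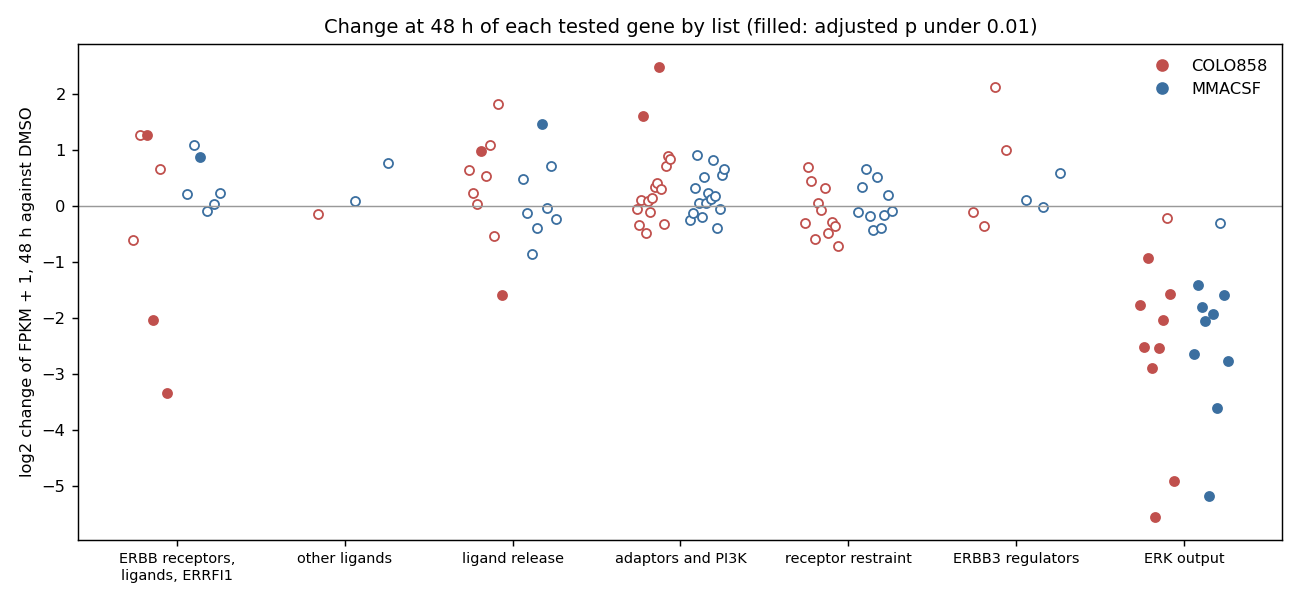
Change at 48 h against DMSO on the log2(FPKM + 1) scale of each tested gene of the ERBB set and of the 6 lists, with COLO858 and MMACSF side by side and filled points where the adjusted p is below 0.01; the sideways spread within a list has no meaning. In the ERK output list 9 of 10 genes fell in each line, while in the ERBB set only ERBB3, TGFA, and ERRFI1 are filled in COLO858 and only ERBB3 in MMACSF.

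The genes most like each of the 3 changed genes were found by the Pearson correlation, over 12 libraries, of log2(FPKM + 1) taken relative to the line's DMSO mean, among 11699 genes tested in both lines. Libraries of a group share a treatment and the DMSO libraries lie near 0 for every gene, so the values describe a shared pattern and carry no p. TGFA was most like AFAP1 (0.991), GNG4 (0.990), and CTHRC1 (0.986), whose changes in COLO858 at 48 h were -1.11, -1.63, and -2.18. ERRFI1 was most like BMPR1A (0.993), DGKI (0.984), and FLRT2 (0.984), with -1.30, -2.13, and -1.16. ERBB3 was most like ATP2B4 (0.994), C5orf4 (0.994), and PTPRJ (0.994), with 1.71, 1.99, and 1.39 in COLO858 and 1.29, 1.51, and 1.03 in MMACSF.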

How the data were processed

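Stranded mRNA libraries were sequenced as single reads of 50 bases, which the authors aligned with TopHat to the hg19 genome, keeping its default settings. Gene values were made with Cuffdiff on the Galaxy server, and the authors deposited them as FPKM, in 1 table per cell line. The annotation, the program versions, the strand setting, and how the libraries were scaled are not given in the sources used here. Low values did not form a step shared by most libraries, so whole reads were not recovered and depth is unknown. The sum of FPKM, which is not a depth, was 670310 to 1013040 per library.

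Each line was fitted with limma 3.58.1 in R 4.3.3, on log2(FPKM + 1), with a term for each of the 3 groups and a mean-variance trend. A gene was tested where at least 1 group had a mean of 1 FPKM or more. P-values were adjusted by Benjamini-Hochberg over all genes tested, and 0.01 was the threshold. The change in COLO858 minus that in MMACSF was tested in a joint fit of the 6 groups and 12 libraries. Groups were taken from the sample labels, and all 12 libraries were used. The procedure was tested on simulated data.

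The genes, lists, and tests were chosen with earlier results of these data known. Named are the 10 genes, and from each list every gene past the threshold by a log2 change of 1 or more against DMSO and the highest and lowest change at 48 h. Also named are the 3 genes most like TGFA, ERRFI1, and ERBB3. ADAM17, SHC1, and PGAP3 lie outside this rule, as do values of NRG3, ADAM19, PIK3R3, and FOXD3 at other times and of BACE1 in COLO858. Those in the text were chosen after their values were seen. Alternatives were an added 0.1 FPKM, no minimum or a minimum of 10 FPKM, a replicate block, median-ratio rescaling, no trend, a spread from the groups compared, and leaving out each library. They were run for the ERBB genes and not for the lists. Coordinates are those of GENCODE v44 on GRCh37, and promoter windows those of RefSeq on GRCh38.p14.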

Additional observations from a re-analysis of the deposited data

Results flagged for a closer look

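The drug response of TGFA differed between the lines at 24 h. Its change in COLO858 minus that in MMACSF was -3.67 on the log2(FPKM + 1) scale (limma interaction, adjusted p = 0.000171), and both libraries in drug lay below both DMSO libraries in COLO858 and above both in MMACSF. At 48 h the TGFA difference was -3.57 (adjusted p = 7.42e-05), again with groups that did not overlap in either line. Within MMACSF the TGFA change passed the threshold at neither time. How many of all genes had groups that did not overlap was not counted. For ERRFI1 the difference at 48 h was -1.93 (adjusted p = 0.00730), and in MMACSF both drug libraries lay below both DMSO libraries by a log2 change of -0.09. These 3 results were picked out because the test of the difference between lines passed. Groups of 2 libraries are too small to search for outlying libraries.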

How the results depend on the processing

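No ERBB gene changed sign under any alternative in a comparison where it had passed the threshold. The counts of ERBB genes past the threshold were less stable. With the spread from the groups compared alone they were 1 in COLO858 at 48 h and 0 in MMACSF at 24 and 48 h, against 3, 1, and 1. In MMACSF at 24 h the count was 0 without a minimum level and 0 without a trend. For the difference between lines it was 3 at 24 h with median-ratio rescaling, and 1 at 48 h with 0.1 FPKM added or without a minimum. Leaving out 1 library gave 0 to 1 in COLO858 at each time, 0 to 0 in MMACSF, and 1 to 2 and 1 to 1 for the difference at 24 and 48 h; the lone library of a group is then assumed to vary like the others. Fewer libraries leave fewer degrees of freedom, and otherwise the cause was not tested. Rescaling moved the median of all genes by less than 0.1.

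Replicate numbers are shared by label only, with 2 pairs per comparison. Same-numbered libraries deviated together over all tested genes with a correlation of 0.196 to 0.211 in COLO858 and 0.0628 to 0.113 in MMACSF, and without small RNA genes of 0.757 to 0.791 and 0.595 to 0.684. With a replicate block the count in COLO858 was 4 (24 h), 5 (48 h), and 1 (from 24 to 48 h), with 2 and 2 against DMSO in MMACSF, and 4 and 4 for the difference, where 45%, 43.7%, 18%, 26.1%, 30.1%, 17.6%, and 25.3% of all genes were called. ERBB2 then passed against DMSO in both lines (adjusted p 0.000227 to 0.00522) and HBEGF in COLO858 at 48 h (adjusted p = 0.00218), ERBB2 passed in COLO858 from 24 to 48 h, and ERBB3 and HBEGF at both times and ERRFI1 at 24 h passed in the difference between lines. The block changed no other call.

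Signs turned only for changes that had not passed. Rescaling gave 0.0063 for EGFR in COLO858 and 0.0081 for ERRFI1 in MMACSF from 24 to 48 h, and -0.036 for HBEGF in MMACSF at 48 h, and 0.1 FPKM gave 0.0019 for ERRFI1 in MMACSF from 24 to 48 h. Leaving out 1 library gave, from 24 to 48 h, -0.20 to 0.16 for EGFR and -0.30 to 0.15 for TGFA in COLO858, and -0.038 to 0.18 for ERBB2 and -0.37 to 0.34 for ERRFI1 in MMACSF. It gave -0.44 to 0.28 for ERRFI1 at 24 h and -0.10 to 0.17 for HBEGF at 48 h in MMACSF. For the difference between lines it gave -0.049 to 0.41 for ERBB2 at 48 h, and from 24 to 48 h -0.062 to 0.30 for EGFR, -0.12 to 0.33 for TGFA, and -0.57 to 0.14 for ERRFI1.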
